A study of Rattus norvegicus with 14 samples.

Results

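Dorsal root ganglia were compared between rats sampled at 8 weeks and rats sampled at 6 weeks, using only the ganglia that served the unoperated hindlimb. The libraries were chosen by the words "Control side" in their titles, which gave 7 of the 14 libraries of the series. They came from wild-type male rats in which the extensor digitorum longus, a toe extensor muscle, had been grafted to the saphenous nerve of the other hindlimb. Rats A, B and E formed the 6-week group (n = 3) and rats D, C, G and H the 8-week group (n = 4). Each library held RNA from ganglia L2 to L5 of 1 side of 1 rat, so the 2 groups held different animals and no library was paired across time. No rat without an operation was among the libraries, so the control side is the other side of an operated animal, and the labels gave no age, strain or time of day. Time, age and any difference between the 2 sets of rats cannot be told apart.

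A dorsal root ganglion holds the cell bodies of the neurons that carry touch, limb position, temperature and pain from the body to the spinal cord. Nociceptors, the pain neurons, are commonly divided into peptidergic cells, which release neuropeptides such as CGRP and substance P, and non-peptidergic cells marked by Mrgprd, P2rx3 and Ret. Each cell body is wrapped by satellite glia, Schwann cells myelinate the larger axons, and fibroblasts, vessels and resident macrophages fill the remaining space.

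The 7 libraries held between 19796261 and 28237574 estimated counts, and the markers of a ganglion (Nefh of large neurons, Scn9a of nociceptors, Mbp of Schwann cells, Fabp7 of satellite glia) were above 10 CPM in each. The first principal component of log2 CPM (counts relative to the TMM-scaled library total) took 63% of the variance and did not split the libraries by time. It placed rats A and B at -65.65 and -110.8, rat H at -2.46, and rat E, a 6-week animal, at 19.35, on the same side of 0 as the other 8-week libraries (37.37 in rat D, 51.93 in rat C and 70.25 in rat G). The mean log2 CPM of 16 general sensory neuron genes was 7.84, 6.87 and 8.76 in rats A, B and E against 8.97, 8.94, 9.16 and 8.45 in rats D, C, G and H. Rat E again lay inside the 8-week range. The neuronal level differed by 1.06 between the groups, with an exact two-sided permutation p of 0.0571 over 35 splits (adjusted p 0.152 over 8 library measures). That difference was 0.61 without rat B and 1.59 without rat E. In ganglia sequenced in bulk, fewer cells of a type and less RNA per cell cannot be told apart.

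Of 16346 genes tested with edgeR, 25 were called at an adjusted p under 0.05 (0.153%), 3 higher at 8 weeks (0.0184%) and 22 lower (0.135%). At an unadjusted p under 0.05 there were 5108 genes (31.2%), 2270 higher (13.9%) and 2838 lower (17.4%). All 4 of the 8-week libraries lay above all 3 of the 6-week libraries for 1980 genes (12.1%) and below them for 2111 genes (12.9%), so that 25% of the genes did not overlap. Log2 differences, given as 8 minus 6 weeks throughout, were positive for 7609 genes (46.5%) and negative for 8737 (53.5%), with a median of -0.057. DESeq2 called 3096 of the 16346 genes, 1539 higher and 1557 lower, with 49.7% of its calls higher against 12% in edgeR. The counts given for each list below are to be read beside these totals over all genes. limma on log2(TPM + 1), where the median of all genes was 0.44, called 3134 higher and 147 lower (95.5% higher), and on log2(TPM + 0.1), with a median of 0.56, it called 8 higher and 6 lower (57.1% higher), none of them in a list described below.

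The count rested on single rats. edgeR called no gene when rat A, B, D, C or G was left out and 1 gene without rat H, while without rat E it called 3861 genes higher and 2527 lower. At an unadjusted p under 0.05 these fits held between 2518 and 8613 genes. All 25 called genes kept their direction in each of the fits run. They were called from these same libraries and none overlapped between the groups, so that outcome was largely set in advance.

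Among the genes called higher was Ass1, argininosuccinate synthase, which makes the precursor of arginine. Its CPM was 42.5, 32.3 and 42.6 in rats A, B and E and 95.0, 96.7, 115.1 and 113.3 in rats D, C, G and H. The groups did not overlap, with a log2 difference of 1.42 (SE 0.16, edgeR adjusted p 0.0344). In deposited TPM, which divides by transcript length, its mean was 23.8 ± 8.24 (SD, n = 3) at 6 weeks and 95.1 ± 9.43 (SD, n = 4) at 8 weeks. The median log2 difference of all genes was 0.44 on log2(TPM + 1) against -0.057 in CPM, so rises look larger in TPM and falls smaller. The log2 difference of Ass1 on the operated side was 0.70, and the difference between the sides had an unadjusted p of 0.0282 in edgeR (adjusted p 1).

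The other called genes that were higher had no count at 6 weeks. Arxes1 had 0 counts in rats A, B and E and 57, 36, 55 and 30 counts in rats D, C, G and H, at least 10.5-fold higher against a floor of 3 counts per library. RefSeq gives the Arxes1 locus Spcs3 as a synonym, and Spcs3, a signal peptidase subunit, is a near-copy of it. Its counts may therefore depend on how reads were shared between them, which was not tested. The Spcs3 gene, named here for that reason after its values were seen, had 1787, 1861 and 1149 counts at 6 weeks and 1424, 1344, 1094 and 1696 at 8 weeks. These raw counts overlapped, while the mean of Spcs3 in CPM was 86.1 at 6 weeks and 54.2 at 8 weeks. On the operated side Arxes1 was also at 0 in rats A and E but at 39 counts in rat B, and at 31, 15, 46 and 7 counts in rats D, C, G and H. The third, ENSRNOG00000064935, has no symbol in the files and was outside the naming rule for that reason. It had 0 counts in the 3 libraries at 6 weeks and 79, 48, 61 and 31 counts at 8 weeks, at least 12.9-fold higher. On the operated side it was at 0 in rats A and B and at 26 counts in rat E.

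The opposite pattern was shown by LOC103690821, which fell. It had 289, 272 and 286 counts in rats A, B and E and 0 in all 4 of the 8-week libraries, at least 129-fold lower against 3 counts per library. The operated side had 178 counts in rat A and 0 in the other 6 libraries, rats B and E at 6 weeks included. Its transcript was among the shortest, at percentile 0.0629 of relative length. A symbol of this form names a predicted locus, and no function is given for it here.

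Fkbp3, a nuclear immunophilin, was at 661.2, 672.8 and 560.6 CPM in rats A, B and E and at 187.5, 236.3, 190.8 and 199.3 CPM in rats D, C, G and H (log2 difference -1.63, SE 0.16). The groups stood apart by more than the spread in either of them. Rbis, a factor of ribosome assembly, had 113.6, 171.3 and 68.2 CPM at 6 weeks against 16.2, 22.1, 21.4 and 24.3 CPM at 8 weeks (log2 difference -2.49, SE 0.31). Cstb, an inhibitor of cathepsins, fell from 228.2 ± 34.8 CPM (SD, n = 3) to 91.0 ± 4.18 (SD, n = 4). In TPM, where falls look smaller, the 6-week and 8-week means were 532.1 and 327.7 for Cstb. They were 686.7 and 344.6 for Fkbp3 and 308.6 and 88.2 for Rbis.

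Polr2k, shared by the nuclear RNA polymerases, fell by 1.57 on the log2 scale, and Med21 of Mediator fell by 1.64. Pfdn4 and Pfdn5, subunits of the prefoldin chaperone that delivers actin and tubulin to their folding machine, fell by 1.32 and 1.57. Itgb3bp, a centromere protein, fell by 1.69. The loci LOC102549249, LOC102547183 and LOC102555317 fell by 1.34, 1.57 and 1.38. Every library of the 8-week group was below every library of the 6-week group for each of the 22 genes that fell, against 12.9% of all genes. A small p in the same libraries favours such a separation, so it adds no support of its own.

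**Figure D1:**
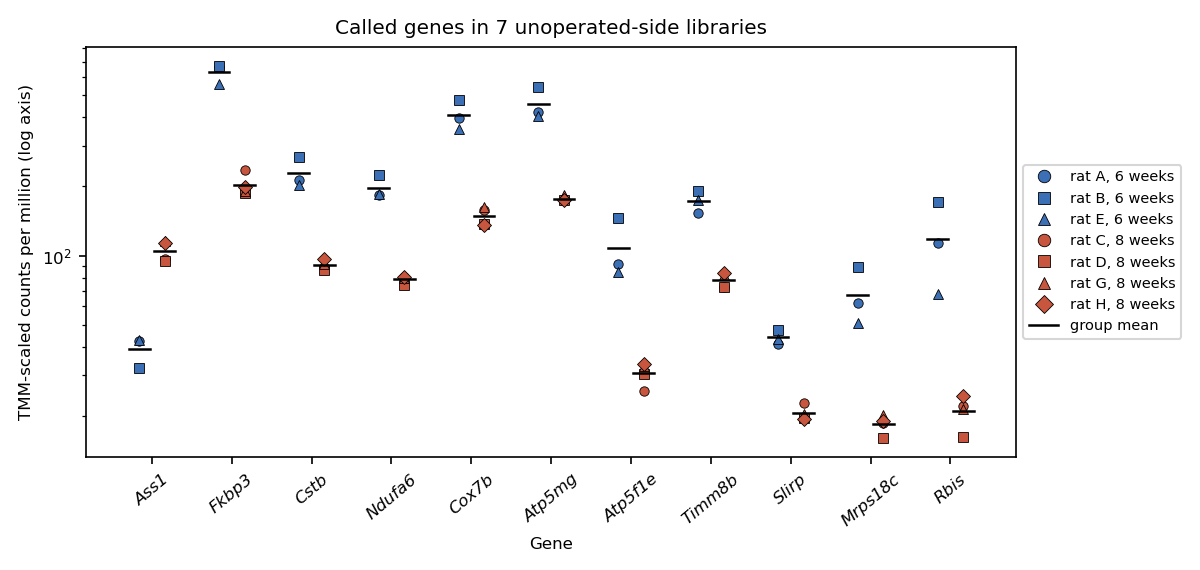
TMM-scaled CPM (log axis) of 11 called genes in each of the 7 unoperated-side libraries, 6 weeks in blue and 8 weeks in red, with black lines at the group means. Ass1 is higher and the other 10 genes are lower in every 8-week library than in every 6-week library.

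Transcript length moved with these differences. Over 15806 genes with a relative length, the Spearman correlation of the log2 difference with length was 0.215, a description across genes that share the same 7 libraries. The median log2 difference was -0.49 in the shortest 10% of transcripts, -0.19 in the next 10% and between -0.10 and 0.12 in the others. Of the 22 genes that fell, 16 were in the shortest 10%, beside 2 of the genes that rose. Within each library, the correlation between length and log2 CPM centred on each gene's mean was -0.122, -0.189 and -0.137 in rats A, B and E and 0.142, 0.211, 0.140 and 0.090 in rats D, C, G and H. The sign separated the groups, with the smallest exact permutation p that 35 splits allow, 0.0286 (adjusted p 0.114). With the trend removed within each library, limma called 3 genes higher and 9 lower, 11 of them among the 25, against 5 and 25 with the trend kept. The part of length in each result was not tested.

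**Figure D2:**
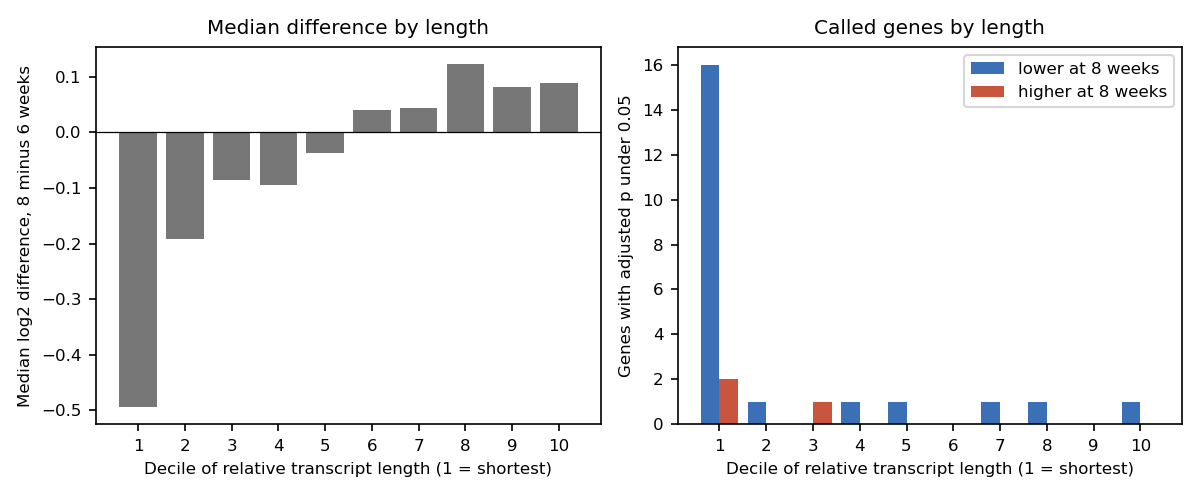
Median log2 difference (left) and number of called genes (right) by decile of relative transcript length, with decile 1 the shortest. The first decile has a median of -0.49 and 16 of the 22 genes called lower.

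Ribosomal proteins build the 2 subunits of the cytosolic ribosome, and many of their messages begin with a C followed by a run of pyrimidines, the 5′ terminal oligopyrimidine (TOP) motif, through which translation is tied to growth signals. None of 64 tested cytosolic ribosomal protein genes was called by edgeR, 60 had an unadjusted p under 0.05, and DESeq2 called 50, all lower. The log2 difference was negative for 64 of 64, with a median of -0.86 (-0.55 without rat B) against -0.057 over all genes. All 8-week libraries lay below all 6-week libraries for 34 of them (53.1%, against 12.9% of all genes).

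The start regions are shown of the 4 genes with the smallest p-values among the ribosomal protein genes that hold the motif, chosen for holding it, and of Mrps18c, a mitochondrial ribosomal protein gene that fell. Each window runs from 10 bases before to 20 bases after the start in RefSeq (rat build GRCr8), 5′ to 3′ on the gene's strand. Capitals mark a C followed by at least 4 pyrimidines within 5 bases of the start.
Rpl31, chr9:49143101-49143130, + strand: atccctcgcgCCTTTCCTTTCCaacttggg
Rpl36a, chrX:102059439-102059468, + strand: tataaaCTTCCgttgctgctctagcctctc
Rps27, chr2:177964587-177964616, - strand: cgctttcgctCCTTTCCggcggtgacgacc
Rpl39, chrX:121195877-121195906, - strand: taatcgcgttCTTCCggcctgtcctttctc
Mrps18c, chr14:9122887-9122916, - strand: cgcttagggaaacggaaaggaagaggaagg

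The motif was searched on the gene's strand only, as C followed by 4 or more letters C or T. It was found in 33 of 50 matched cytosolic ribosomal protein genes (66.0%), in 14 of 55 mitochondrial ribosomal protein genes (25.5%) and in 4060 of 24206 promoters in the table (16.8%). Of the genes shown, Rpl31 had a log2 difference of -1.67 (SE 0.26), Rpl36a of -2.02 (SE 0.31), Rps27 of -1.74 (SE 0.31) and Rpl39 of -1.97 (SE 0.35), with edgeR adjusted p of 0.0659, 0.0659, 0.0785 and 0.0785. Mrps18c, without the motif in this window, fell by 1.87 (SE 0.20, edgeR adjusted p 0.0344).

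Rpl39, a short protein of the exit tunnel of the ribosome, had 264.1, 410.7 and 143.1 CPM in rats A, B and E and 60.6, 71.4, 56.0 and 89.7 CPM in rats D, C, G and H. Rps27a, which encodes ubiquitin fused to a small-subunit protein, had 1067, 1516 and 729.4 CPM at 6 weeks and 245.3, 301.7, 244.7 and 325.2 CPM at 8 weeks (log2 difference -1.98, SE 0.27, edgeR adjusted p 0.0601). Neither gene overlapped between the groups, and within each group rat B, or rat H at 8 weeks, was the highest. Ribosomal protein messages are short, at a median length percentile of 4.89, and have many near-identical pseudogene copies among which reads may be shared. The list median less that of all genes was -0.81 in CPM, -0.65 and -0.77 on the TPM scale with 1 and 0.1 added, -0.35 with the length trend removed, and -0.21 with the neuronal level as a covariate. On the operated side the list median was -0.24. Operated-side list medians, here and below, are given without the median of all genes on that side, which was not computed. A list of 18 tested translation factors and other TOP messages, added after the values were seen, had 14 negative differences and a median of -0.43, or -0.22 without rat B. On the TPM scale that median was 0.27, below the 0.44 of all genes. Tpt1, a translationally controlled growth protein, had the smallest p among them with a log2 difference of -0.98 (SE 0.30).

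The 13 protein genes of the mitochondrial genome, which encode core subunits of the respiratory chain, had log2 differences between -2.08 and -0.88 with a median of -1.09. None was called by edgeR, although 13 of 13 had an unadjusted p under 0.05, and DESeq2 called 12, all lower. The groups did not overlap for 12 of 13 (92.3%, against 12.9% of all genes). Mt-nd3, a subunit of complex I, had 2127, 4277 and 1381 CPM in rats A, B and E and 489.0, 666.2, 516.2 and 776.3 CPM in rats D, C, G and H (log2 difference -2.08, SE 0.40). Together the mitochondrial genome took 278600, 288500 and 260300 TPM at 6 weeks and 160200, 213000, 193000 and 210700 at 8 weeks. The summed TPM separated the groups (means 275800 ± 14290, n = 3, and 194200 ± 24400, n = 4, SD; exact permutation p 0.0286, adjusted p 0.114). The list median stayed negative in every fit run, at -0.70 with the neuronal level and -0.68 with the macrophage level as a covariate, and it was -0.93 on the operated side.

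Nuclear genes of the same respiratory chain took both directions, with more of them lower in CPM. Of 71 tested, 4 were called lower (against 0.135% of all genes), 26 differences were positive and 45 negative, and the median was -0.12. At an unadjusted p under 0.05, 22 were lower and 6 higher, and DESeq2 called 15 lower and 3 higher. All 8-week libraries lay below all 6-week libraries for 21 (29.6%, against 12.9% of all genes). They lay above them for 3 (4.23%, against 12.1%). Cox7b of complex IV had 399.6, 478.3 and 356.3 CPM at 6 weeks and 137.2, 158.4, 162.3 and 135.8 CPM at 8 weeks (log2 difference -1.47, SE 0.17). Ndufa6 of complex I fell by 1.33, and Atp5mg and Atp5f1e of ATP synthase fell by 1.37 and 1.80. Atp5mk, an ATP synthase subunit outside the list, fell by 1.79. The 39 members among the shortest 10% of transcripts had a median of -0.17, with 30 negative, and the other 32 had a median of 0.07, with 15 negative. The list median less that of all genes was -0.06 in CPM and on the TPM scale with 0.1 added, but 0.05 with 1 added and 0.26 with the length trend removed, so the list has no direction that holds across scales. The list median itself ran from -0.18 without rat A to 0.0019 without rat E. Less that of all genes, these medians were -0.145 and -0.0012.

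Of 72 tested mitochondrial ribosomal protein genes, Mrps18c was called lower, 46 differences were negative and the median was -0.12 (0.0094 without rat E). All 8-week libraries lay below all 6-week libraries for 18 (25%, against 12.9% of all genes) and above them for 2 (2.78%, against 12.1%). At an unadjusted p under 0.05, 16 were lower and 1 higher, and DESeq2 called 10, all lower. Chchd1, another protein of that ribosome kept outside the list, fell by 1.47. Among 33 import and assembly genes, Slirp and Timm8b were called lower and the median was -0.25 (-0.09 without rat E). That median turned to 0.23 with the length trend removed and to 0.38 on the log2(TPM + 1) scale, where that of all genes was 0.44. In CPM, 10 of these genes were lower without overlap (30.3%) and 2 higher (6.06%). At an unadjusted p under 0.05, 9 were lower and 3 higher. Slirp binds mitochondrial messages together with Lrpprc, and their values went opposite ways. Slirp had 41.2, 47.3 and 43.5 CPM at 6 weeks and 19.7, 22.8, 20.3 and 19.4 CPM at 8 weeks (log2 difference -1.10, SE 0.12). In TPM the means of Slirp were closer, at 125 and 95.1. Lrpprc was at 61.8 CPM on average at 6 weeks and 119.0 at 8 weeks (log2 difference 0.94, SE 0.25, edgeR adjusted p 0.0969). Timm8b, an intermembrane space chaperone, fell by 1.15. The proteasome list had a median of 0.10 with 18 of 33 positive (0.0071 without rat B and 0.28 without rat E). Of its genes, 8 were lower without overlap (24.2%) and 2 higher (6.06%), with 7 lower and 2 higher at an unadjusted p under 0.05. Sem1, a small subunit of the proteasome lid, had a log2 difference of -1.12 (SE 0.18, edgeR adjusted p 0.0674).

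Sensory neuron genes had mostly positive differences, and edgeR called none of them. In bulk ganglia these differences came with the higher neuronal level of the 8-week libraries and of rat E given above, whose part in each gene was not tested. Of 15 tested non-peptidergic nociceptor genes, 14 differences were positive, the median was 1.36, and all 8-week libraries lay above all 6-week libraries for 12 (80%, against 12.1% of all genes). At an unadjusted p under 0.05, 12 were higher and 1 lower, and DESeq2 called 12 higher. The log2 difference of Mrgprd, a receptor of polymodal nociceptors, was 2.16 (SE 0.56, edgeR adjusted p 0.0965), from 2.73, 1.35 and 7.12 CPM in rats A, B and E to 14.4, 13.6, 25.2 and 14.1 CPM in rats D, C, G and H. Tmem45b, a membrane protein of these cells, had 11.2, 8.94 and 13.6 CPM at 6 weeks and 25.6, 32.5, 40.9 and 28.2 CPM at 8 weeks (1.496, SE 0.23, edgeR adjusted p 0.0659). Plxnc1, a semaphorin receptor, went from 45.9, 30.2 and 37.7 CPM to 69.5, 84.8, 78.2 and 70.6 CPM (1.00, SE 0.17, edgeR adjusted p 0.0785). Rat E was the highest 6-week library for Mrgprd and Tmem45b but not for Plxnc1. The exception was Agtr1a, an angiotensin receptor, at -0.90, and Runx1, the transcription factor that specifies these cells, was at 0.07.

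With the general neuronal level as a covariate the non-peptidergic median was 0.72, and with the macrophage level 0.73, whereas the peptidergic median was 0.38 and 0.44 and that of proprioceptors and myelinated mechanoreceptors -0.05 and -0.10. No list's difference from another list was tested. The operated-side medians of these lists were 0.34, 0.56 and 0.45, again without the median of all genes on that side.

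All 14 tested peptidergic nociceptor genes had positive differences, with a median of 1.08 (1.83 without rat E), and 6 did not overlap (42.9%, against 12.1% of all genes). At an unadjusted p under 0.05 there were 7, and DESeq2 called 5, all higher. Oprm1, the mu opioid receptor, had the smallest p, with 0.67, 0.56 and 1.93 CPM in rats A, B and E and 4.19, 6.76, 7.33 and 4.12 CPM in rats D, C, G and H (log2 difference 2.39, SE 0.51, edgeR adjusted p 0.0841). Trpv1, the heat and capsaicin channel, had 23.2, 11.1 and 65.3 CPM at 6 weeks and 83.0, 102.2, 144.2 and 83.8 CPM at 8 weeks (1.64, SE 0.57). In contrast, Calca, the gene of CGRP, had 419.3, 228.6 and 814.1 CPM against 781.1, 784.8, 818.6 and 674.6 CPM. Rat E reached the 8-week level of Calca, so the groups overlapped, and the log2 difference was 0.65 (SE 0.39). Tac1, the gene of substance P, was at 0.39 (SE 0.30).

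Genes of cool-sensing neurons and low-threshold C fibres had 8 of 9 positive differences and a median of 1.16. For 5 the groups did not overlap (55.6%, against 12.1% of all genes). edgeR called none, 6 were higher and 1 lower at an unadjusted p under 0.05, and DESeq2 called 5 higher and 1 lower. Tafa4, a secreted protein of low-threshold C fibres, had 3.73, 2.70 and 4.39 CPM at 6 weeks and 8.27, 12.65, 15.01 and 11.8 CPM at 8 weeks (1.72, SE 0.28, edgeR adjusted p 0.0667). Trpm8, the menthol and cold channel, had 10.8, 3.04 and 21.2 CPM at 6 weeks and 37.6, 47.6, 45 and 32.7 CPM at 8 weeks (1.80, SE 0.56). Th, tyrosine hydroxylase, was too low to test. Foxp2 had a log2 difference of -1.46 (SE 0.54).

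Large myelinated neurons overlapped between the groups for most genes. In the list of proprioceptors and myelinated mechanoreceptors, 15 of 20 differences were positive, the median was 0.62, and 3 did not overlap (15%, against 12.1% of all genes). The median was 0.33 without rat B and 1.04 without rat E. Piezo2, the channel of touch and limb position, had 41.4, 18.7 and 98.0 CPM at 6 weeks and 163.5, 192.2, 203.9 and 110.9 CPM at 8 weeks (1.67, SE 0.53). Pvalb, the calcium buffer of proprioceptors, had 96.3, 55.7 and 186.4 CPM against 173.3, 142.6, 116.5 and 185.2 CPM, with rat E the highest of the 7. Ntrk3, the receptor of neurotrophin-3, was at 0.23 (SE 0.19). edgeR called none of them, 4 were higher at an unadjusted p under 0.05, and DESeq2 called 4. Among general neuronal genes 15 of 16 differences were positive, with a median of 0.77 (0.44 without rat B and 1.55 without rat E). edgeR called none of the 16, with 2 higher and 1 lower at an unadjusted p under 0.05 and the same numbers called by DESeq2.

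**Figure D3:**
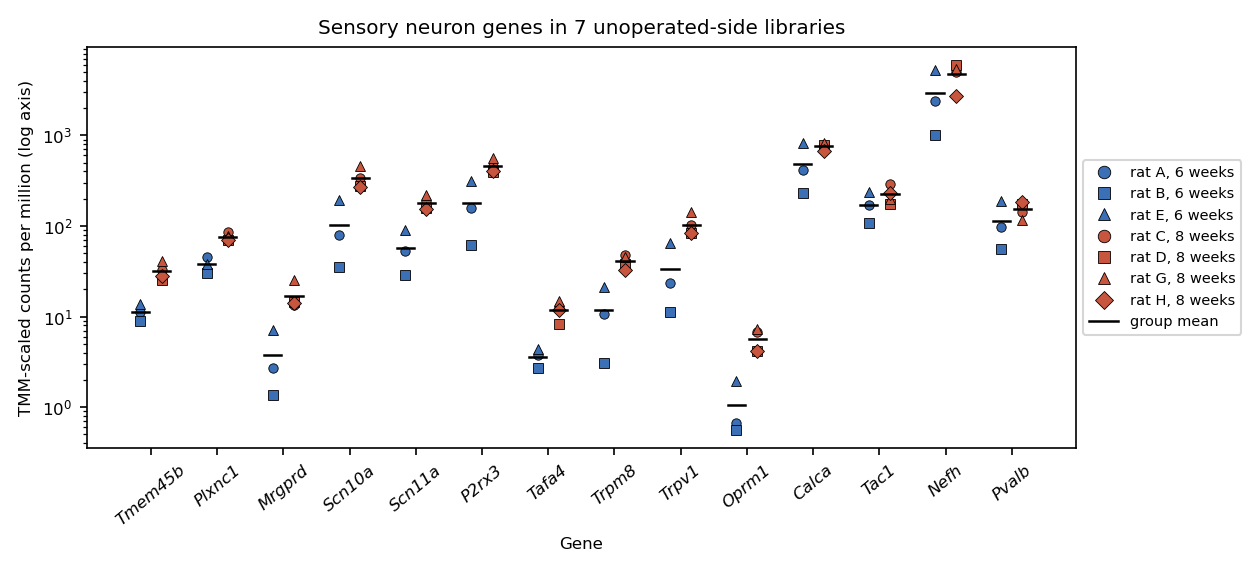
TMM-scaled CPM (log axis) of 14 sensory neuron genes in the 7 unoperated-side libraries, 6 weeks in blue and 8 weeks in red, with black lines at the group means. Tmem45b, Plxnc1, Mrgprd, Scn10a, Scn11a, P2rx3, Tafa4, Trpm8, Trpv1 and Oprm1 do not overlap between the groups. For Calca, Tac1, Nefh and Pvalb rat E (blue triangle) lies among or just above the 8-week libraries.

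Excitability genes of neurons followed the same direction. Of 26 sodium and calcium channel genes, 25 differences were positive with a median of 1.12. For 11 the groups did not overlap (42.3%, against 12.1% of all genes). Scn11a, the Nav1.9 channel of nociceptors, had 53.2, 28.6 and 89.97 CPM at 6 weeks and 157.8, 189.8, 218.3 and 152.6 CPM at 8 weeks (1.65, SE 0.38, edgeR adjusted p 0.0882). Scn10a, the Nav1.8 channel, had 79.1, 35.2 and 191.7 CPM against 277.4, 340.6, 465.0 and 267.8 CPM (1.73, SE 0.55). Scn9a, the Nav1.7 channel, overlapped, at 0.54 (SE 0.28). Of 33 potassium and HCN channel genes, 32 differences were positive with a median of 1.11. For 15 the groups did not overlap (45.5%, against 12.1% of all genes). Kcnd3, an A-type channel, had 23.3, 15.3 and 34.2 CPM at 6 weeks and 60.2, 93.8, 99.4 and 64.5 CPM at 8 weeks (1.71, SE 0.32, edgeR adjusted p 0.0785). Kcnc4, a further potassium channel, had a difference of 2.05 (SE 0.48). Kcna2, which sits beside the node of Ranvier, was at 1.04 (SE 0.50).

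edgeR called no gene of either channel list. At an unadjusted p under 0.05 the counts were 15 and 19, all higher, and DESeq2 called 12 and 16. Channel genes are long, at a median length percentile of 94.3 for sodium and calcium channels and 78.7 for potassium and HCN channels. With the length trend removed the medians were 1.11 and 1.26, and with the neuronal level as a covariate 0.27 and 0.23. Without rat E they were 1.75 and 1.91. Of 25 TRP, P2X and acid-sensing channel genes, 21 differences were positive with a median of 0.84 (0.45 without rat B and 1.28 without rat E). edgeR called none of these, DESeq2 called 9 higher, and at an unadjusted p under 0.05 there were 11 higher and 2 lower. P2rx3, the ATP receptor of nociceptors, had 159.6, 61.5 and 313.5 CPM against 397.0, 461.4, 557.8 and 408.9 CPM (1.36, SE 0.49). Piezo1, a mechanosensitive channel of vessels and other cells, was at -0.85 (SE 0.31).

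Synaptic vesicle release genes had positive differences in 25 of 25 tested, with a median of 1.31 (1.98 without rat E). For 14 the groups did not overlap (56%, against 12.1% of all genes). edgeR called none, 18 had an unadjusted p under 0.05 and DESeq2 called 15. Syt1, the calcium sensor of release, had 8.85, 2.87 and 17.7 CPM in rats A, B and E and 38.1, 50.5, 69.0 and 39.6 CPM in rats D, C, G and H (2.32, SE 0.57, edgeR adjusted p 0.0937). Cplx2, complexin, was at 1.60 (SE 0.41). Axon cytoskeleton and transport genes had 27 of 29 positive differences and a median of 0.82 (1.53 without rat E). For 8 the groups did not overlap (27.6%, against 12.1% of all genes). edgeR called none, against 16 at an unadjusted p under 0.05 and 11 by DESeq2. Ina, alpha-internexin, had 29.3, 20.1 and 55.4 CPM at 6 weeks and 95.9, 110.9, 138.2 and 85.7 CPM at 8 weeks (1.62, SE 0.36). Nefh, the heavy neurofilament, had 2372, 1013 and 5336 CPM against 5955, 5054, 5379 and 2716 CPM, with rats E and H on the far side of their own groups.

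Axon injury genes took both directions, 13 positive and 12 negative of 25 tested, with a median of 0.03 that ran from -0.15 without rat G to 0.29 without rat E. Klf7, a growth-promoting factor, was at 1.09 (SE 0.29), and Gap43, the growth cone protein, at 0.92 (SE 0.32). Atf3, the injury factor of neurons, had 16.8, 39.7 and 18.7 CPM at 6 weeks and 17.9, 8.29, 8.95 and 11.5 CPM at 8 weeks, which overlapped. Socs3, an inhibitor of STAT3 signalling, had 42.5, 13.4 and 7.45 CPM against 6.70, 5.24, 4.49 and 5.93 CPM (-1.92, SE 0.54). Gal, galanin, stayed under 8 CPM in each library. edgeR called none, 5 were higher and 5 lower at an unadjusted p under 0.05, and DESeq2 called 5 higher and 2 lower.

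Myelin genes had negative differences in every tested member. Myelinating Schwann cells wrap 1 stretch of 1 axon in layers of membrane held together by proteins such as Mbp. Of 20 tested genes, 20 had negative differences with a median of -0.94, and 18 did not overlap (90%, against 12.9% of all genes). edgeR called none, 19 had an unadjusted p under 0.05 and DESeq2 called 17, all lower. Mbp, myelin basic protein, had 4534, 5297 and 3246 CPM in rats A, B and E and 1188, 1769, 983.4 and 1398 CPM in rats D, C, G and H (-1.71, SE 0.28, edgeR adjusted p 0.0698). Ncmap, a further myelin membrane protein, had 71.0, 84.1 and 58.2 CPM against 25.9, 37.9, 26.3 and 33.5 CPM (-1.20, SE 0.20, edgeR adjusted p 0.0683). For both genes the lowest 6-week value was that of rat E and the highest 8-week value that of rat C. The median was -0.999 with the length trend removed, -0.59 with the neuronal level as a covariate, and -1.12 on the operated side.

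Satellite glia did not move with myelin as a list, with 9 positive and 11 negative differences of 20 tested and a median of -0.04 (0.12 without rat E). Fabp7, a satellite glial marker, had 18.4, 13.6 and 20.6 CPM against 25.4, 11.5, 17.8 and 10.7 CPM. The members with the smallest p were Ptn and S100b, which Schwann cells also express. Ptn, a growth factor, had 513.7, 601.6 and 533.7 CPM at 6 weeks and 257.6, 303.2, 281.4 and 295.8 CPM at 8 weeks (-0.95, SE 0.15, edgeR adjusted p 0.0659). S100b was at -0.74 (SE 0.18). edgeR called none of the list, 1 was higher and 3 lower at an unadjusted p under 0.05, and DESeq2 called 3 lower. Repair Schwann cell genes had 7 positive and 6 negative differences and a median of 0.02 (-0.10 without rat B and 0.25 without rat E). Among them Egr1 was at -2.28 and L1cam, an adhesion protein of axons and unmyelinated glia, at 1.30. edgeR called none of these 13, 3 were higher and 2 lower at an unadjusted p under 0.05, and DESeq2 called 1 each way.

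Differences were negative for 24 of 25 tested fibroblast and collagen genes, with a median of -0.83. For 10 the groups did not overlap (40%, against 12.9% of all genes). edgeR called none, 11 had an unadjusted p under 0.05 and DESeq2 called 8. Lum, lumican of the collagen matrix, had 336.6, 518.2 and 209.9 CPM at 6 weeks and 53.1, 119.2, 91.4 and 136.1 CPM at 8 weeks (-1.83, SE 0.39, edgeR adjusted p 0.0843). Col1a1, the main chain of type I collagen, had 802.6, 871.4 and 558.8 CPM against 213.3, 351.9, 485.5 and 424.0 CPM (-1.01, SE 0.30). A collagen outside the list, Col6a5, went the other way with 4.79, 3.65 and 5.66 CPM at 6 weeks and 12.4, 13.96, 16.5 and 13.5 CPM at 8 weeks (1.58, SE 0.21, edgeR adjusted p 0.0552). Endothelial and pericyte genes had 15 of 20 negative differences and a median of -0.36, which was -0.06 without rat B, -0.20 without rat D, 0.25 on the log2(TPM + 1) scale, below the 0.44 of all genes, and 0.12 with the neuronal level as a covariate. Cspg4, the NG2 proteoglycan of pericytes, was at -0.73 (SE 0.15), and Pecam1 at -0.18 (SE 0.32). edgeR called none of these, 1 was higher and 4 lower at an unadjusted p under 0.05, and DESeq2 called 1.

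Macrophage genes had negative differences in 22 of 22 tested, with a median of -1.34. Yet the groups overlapped for all but 2 (9.09%, against 12.9% of all genes). Trem2, a lipid receptor of macrophages, had 11.1, 20.5 and 10.1 CPM at 6 weeks and 2.08, 2.75, 3.47 and 6.64 CPM at 8 weeks (-1.90, SE 0.44). Adgre1, the F4/80 antigen, had 23.7, 32.0 and 11.8 CPM against 6.74, 5.85, 7.58 and 11.5 CPM (-1.51, SE 0.37). Cd68, a lysosomal protein, had 28.2, 32.3 and 9.62 CPM against 17.8, 6.33, 7.89 and 15.01 CPM. Rat B was the highest for each of these 3 genes. Genes of antigen presentation and the interferon response had 21 of 23 negative differences and a median of -1.09 (-0.65 without rat B), among them Cd74, the invariant chain of MHC class II, at -1.34 (SE 0.32). The list of T, B and NK cell genes had 17 of 18 negative differences and a median of -1.27. edgeR called none in the 3 lists. Their counts at an unadjusted p under 0.05 were 15, 16 and 10, all lower, and DESeq2 called 10, 12 and 5. With the neuronal level as a covariate the medians were -0.18, -0.14 and -0.07.

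Markers of blood and of dividing cells overlapped between the times. Hbb, a haemoglobin chain, had 45300, 51410 and 6579 CPM in rats A, B and E and 19030, 6383, 4749 and 12370 CPM in rats D, C, G and H. Rats A, B, D and H were high and rats E, C and G low. Rats A, B, D and H were again higher than rats E, C and G for S100a8, a neutrophil protein, with 1167, 2448 and 259.9 CPM at 6 weeks and 500.6, 179.0, 138.1 and 820.2 CPM at 8 weeks. Cdk1, the kinase of mitosis, had 29.2, 33.4 and 4.48 CPM against 10.7, 4.14, 2.56 and 11.7 CPM. All 10 red blood cell, 13 neutrophil and 22 cell cycle genes tested had negative differences, with medians of -1.36, -1.16 and -1.09, and none of them was without overlap. Without rat B the neutrophil and cell cycle medians were -0.70 and -0.65. edgeR and DESeq2 called none, and at an unadjusted p under 0.05 there were 1, 0 and 1. With the neuronal level as a covariate the 3 medians were 0.64, 0.62 and 0.47, so their direction did not hold there. Their part in the other results was not tested.

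**Figure D4:**
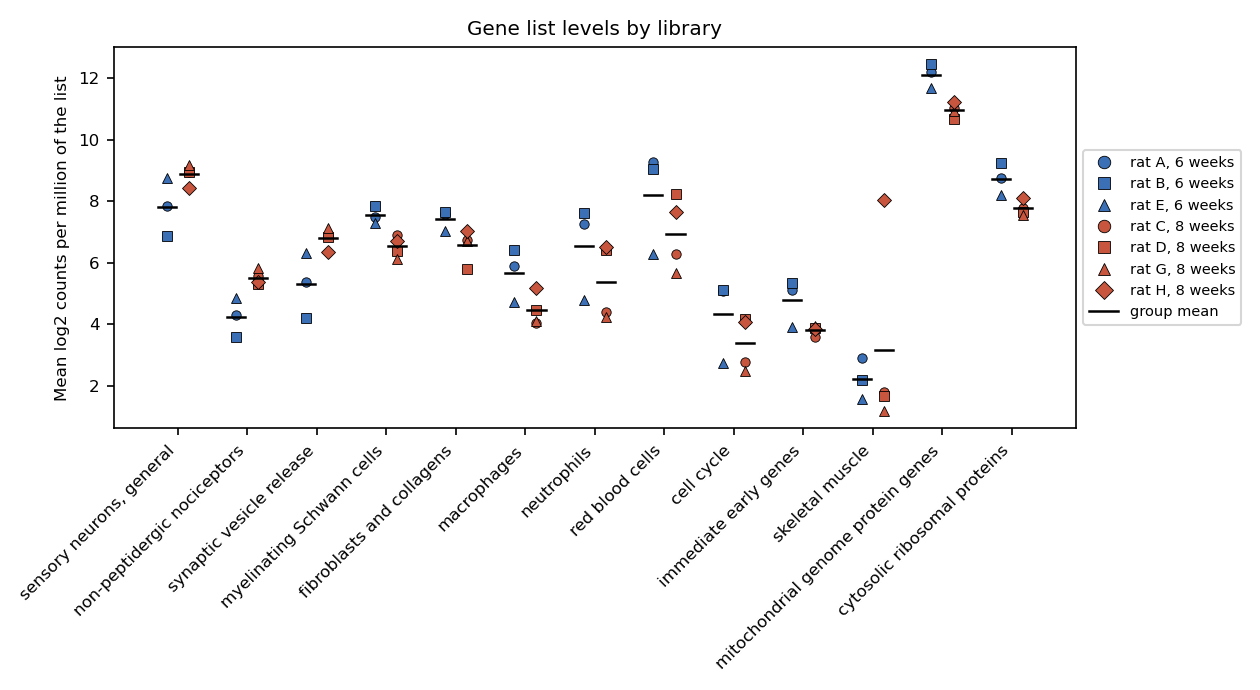
Mean log2 CPM of the genes of 13 lists in each of the 7 unoperated-side libraries, 6 weeks in blue and 8 weeks in red, with black lines at the group means. Rat E (blue triangle) lies inside the 8-week range for the general sensory neuron, blood, neutrophil, cell cycle and immediate early lists. It lies below that range for the non-peptidergic nociceptor and synaptic vesicle release lists. Rat H (red diamond) stands alone for skeletal muscle at 8.04.

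Immediate early genes, which are transcribed within minutes of a stimulus, had negative differences in 18 of 18 tested, with a median of -1.15 (-0.62 without rat B) and 3 not overlapping (16.7%, against 12.9% of all genes). edgeR called none, 10 had an unadjusted p under 0.05 and DESeq2 called 7. Fos had 135.1, 57.6 and 6.37 CPM in rats A, B and E and 20.8, 10.03, 8.00 and 5.59 CPM in rats D, C, G and H (-2.58, SE 0.87). Egr1 had 116.8, 119.9 and 30.6 CPM against 19.6, 12.96, 22.5 and 18.6 CPM (-2.28, SE 0.45, edgeR adjusted p 0.0815). Rats A and B carried the difference in Fos, and rat E lay among the 8-week values. Glucocorticoid response genes had 12 of 14 negative differences and a median of -0.67, among them Sgk1, a kinase, at -1.02 (SE 0.28). Clock genes had 14 of 16 negative differences and a median of -0.39, which was -0.24 without rat B and 0.14 on the log2(TPM + 1) scale, below the shift of all genes. Dbp, an output factor of the clock, had 150.9, 173.2 and 112.0 CPM against 55.5, 75.8, 82.2 and 94.8 CPM (-0.92, SE 0.22, edgeR adjusted p 0.0937), and Per2 was at -0.66 (SE 0.29). edgeR called none in these 2 lists, 7 and 4 were lower at an unadjusted p under 0.05, and DESeq2 called 4 and 1.

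Cholesterol synthesis genes had 17 of 24 positive differences and a median of 0.35, which was 0.21 without rat B, 0.61 without rat E and -0.06 with the neuronal level as a covariate. Idi1, an isoprenoid enzyme, was at -0.67 (SE 0.18). edgeR called none, 5 were higher and 1 lower at an unadjusted p under 0.05, and DESeq2 called 4 higher and 1 lower. Heat shock and chaperone genes had 11 of 17 positive differences, with a median of 0.39 that ran from -0.23 without rat D to 0.65 without rat A. Chromatin regulators had 18 of 33 positive differences and a median of 0.05, which ran from -0.02 without rat D to 0.13 without rat A and was -0.04 with the length trend removed. Ncoa2, a nuclear receptor coactivator, was at 0.88 (SE 0.22), and Nipbl, the cohesin loader, at -0.99 (SE 0.27). edgeR called no gene of either list, at an unadjusted p under 0.05 there were 2 and 7, and DESeq2 called 1 and 5.

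**Figure D5:**
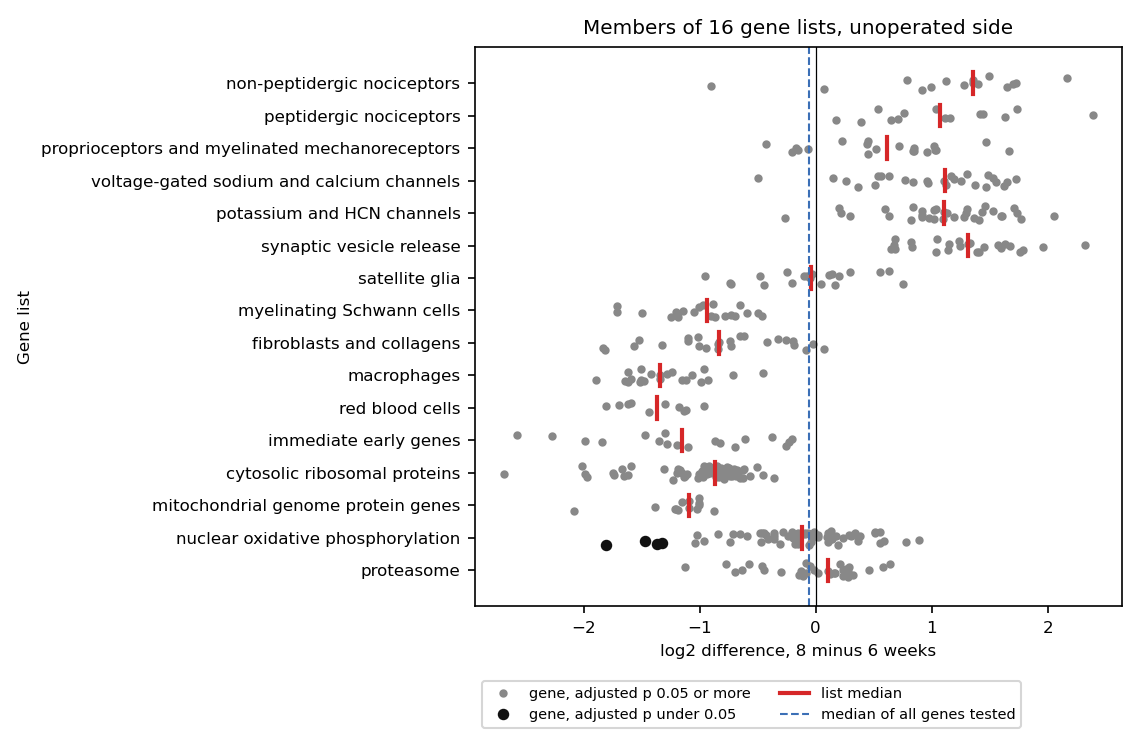
Log2 difference (8 minus 6 weeks) of each tested gene of 16 lists, with called genes in black, list medians in red and the median of all genes (-0.057) as a dashed line. The neuronal lists lie to the right, the myelin, macrophage, ribosomal and mitochondrial genome lists to the left, and called genes appear in nuclear oxidative phosphorylation alone among the lists drawn.

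Markers of 3 other tissues were measured, and the source of their RNA was not tested. The mean log2 CPM of 20 skeletal muscle genes was 8.04 in rat H and between 1.18 and 2.90 in the other 6 libraries. Acta1, the actin of skeletal muscle, had 1642 CPM in rat H and 28.4, 16.5, 11.7, 16.5, 14.2 and 12.1 CPM in rats A, B, E, D, C and G. The median log2 difference of the muscle list was 4.06 with rat H and -0.76 without it. The adipocyte list had a level of 3.60 in rat G and between 1.07 and 2.13 elsewhere, and its median of 1.12 was -0.21 without rat G and 0.74 without rat D. Spinal cord genes, of which 8 of 17 were tested, had levels between 0.30 and 1.85 with a median difference of -0.97, or -0.35 without rat B. Gad1, the enzyme that makes GABA, had 1.78, 4.44 and 4.67 CPM at 6 weeks and 0.54, 1.48, 0.63 and 1.09 CPM at 8 weeks. Slc5a7 of the same list went the other way, from a mean of 3.29 CPM to 9.79 CPM (1.57, SE 0.42), also without overlap. edgeR called none in the 3 lists, at an unadjusted p under 0.05 there were 0, 3 and 2, and DESeq2 called 0, 2 and 2. For the spinal cord list, 1 was higher and 1 lower by either count. The adipocyte list had 2 higher and 1 lower by unadjusted p, and its DESeq2 calls were higher.

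Among genes outside the 38 chosen lists, those with the smallest p-values for a higher level at 8 weeks included transporters and signalling proteins. The 3 called genes and Col6a5 were given above. Hal, the enzyme that removes ammonia from histidine, had 0.72, 0.67 and 0.75 CPM at 6 weeks and 2.93, 3.10, 4.14 and 2.57 CPM at 8 weeks (2.14, SE 0.29, edgeR adjusted p 0.0552). Slc16a12, a monocarboxylate family transporter, had 3.56, 2.08 and 4.62 CPM against 11.3, 11.4, 18.1 and 14.5 CPM (2.01, SE 0.33, edgeR adjusted p 0.0683). Ptprt, a receptor tyrosine phosphatase, was at 1.89 (SE 0.32), Atp13a4, a P-type ATPase, at 1.65 (SE 0.28), Prr15l at 2.21 (SE 0.36) and Cpne3, a calcium-dependent membrane-binding protein, at 0.88 (SE 0.15). None of these overlapped between the groups, and none was called by edgeR.

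The operated side of the same rats was also compared between the times. There edgeR called none of 16606 genes (0%), with 1089 at an unadjusted p under 0.05 (6.56%). For the difference of the time change between the sides, tested over all 14 libraries with the rat as a block, edgeR called none of 17035 genes (0%), with 252 at an unadjusted p under 0.05 (1.48%), and DESeq2 called 5. Cox7b had a log2 difference of -0.31 (SE 0.21) on the operated side against -1.47 on the unoperated side (difference -1.14, unadjusted p 0.00219, adjusted p 1). Slirp was at -0.07 (SE 0.16) on the operated side (difference -1.03, unadjusted p 8.84e-04, adjusted p 1). Rbis was at -1.70 (SE 0.41). Among the called genes with a fitted value on both sides, each had the same sign on the operated side as on the unoperated side. Both sides come from the same rats, so any difference between the 2 sets of rats is shared. The agreement therefore adds no support of its own, and its share over all genes was not counted.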

How the data were processed

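RNA of 7 unoperated-side libraries was analysed, with the operated side for comparison. Letters C and D are exchanged between titles and library names, and the title letters were used. The labels name polyA RNA as the molecule and ribosomal depletion in the extraction protocol. The authors deposited estimated counts, all whole numbers, and TPM for 30562 genes. Per the submitters' processing notes the tools were FastQC, Trim Galore, Salmon and DESeq2; versions, annotation and genome build are not given in the sources used here.

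Tests of the estimated counts used edgeR 4.0.16 under R 4.3.3 (filterByExpr with a minimum count of 10, TMM scaling, robust quasi-likelihood fit of time, 5 residual degrees of freedom). Tests were two-sided and adjusted by Benjamini-Hochberg over all genes, with a threshold of 0.05. SE is the log2 difference divided by the square root of F. List levels are mean log2 CPM with a prior count of 2. Relative length is the ratio of count to TPM where 3 or more libraries had 20 counts. The trend with length was removed by lowess with a span of 0.3 in each library. Alternatives were DESeq2 1.42.0, limma 3.58.1, other scalings and filters, covariates and each rat left out. Only the edgeR fit of time in the unoperated-side libraries was tested on simulated data.

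The libraries and 38 gene lists (986 entries, 51 not found) were chosen with earlier results of these data known, and 2 lists were added after seeing values. Named were, in each direction, the 12 genes with the smallest p with a symbol and at least 1 TPM, all called genes with a symbol, fixed marker genes and the 2 smallest p of each list. Some genes that the rule named are not reported here. Other genes named in the text were chosen after their values were seen. Replicates are separate rats.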

Additional observations from a re-analysis of the deposited data

Results flagged for a closer look

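In 167 checks of the 4 libraries at 8 weeks, 9 values had a gap to the nearest library above 0.829 of the range. Chance gives about 1 in 20, which is close to the share flagged here, and the cause of each was not tested. Rat H held 6 of the 9 values, with its muscle level counted both as a library measure and as a list. Its log2 CPM was 10.68 for Acta1, against 3.60 to 4.06 in rats D, C and G, and 8.31 for Actn3, the actinin of fast muscle fibres, against 1.18 to 1.73. The skeletal muscle level of rat H was 8.04 against 1.18 to 1.80, both as a library measure and as a gene list. For Kif1b, a motor of axonal transport, rat H was the lowest, at 8.79 against 9.23 to 9.28, and its level of the proprioceptor and myelinated mechanoreceptor list was 6.20 against 6.59 to 6.66. Rat G was the highest for Mrgprd, at 4.66 against 3.77 to 3.86, and for the adipocyte list, at 3.60 against 1.30 to 1.45. Rat D was the lowest for Kcnj8, a potassium channel of pericytes, at 0.15 against 0.86 to 0.88.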

How the results depend on the processing

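With 3 and 4 rats the calls are fragile. The number of genes called by edgeR was 25, with 3 higher and 22 lower. DESeq2 gave 3096 (1539 and 1557), limma on log2(TPM + 1) gave 3281 (3134 and 147) and on log2(TPM + 0.1) gave 14 (8 and 6), and 1 fit of all 14 libraries gave 70, 66 of them lower. Removing the length trend gave 12 (9 lower), limma on log2 CPM with the trend kept called 5 higher, the neuronal covariate called 0 higher, and the macrophage covariate gave 2 (1 and 1). Without rats B and H, and with the replicate number as a block, the count was 0 (0 higher and 0 lower; 3385 and 6291 genes at an unadjusted p under 0.05). Without rat H and with the neuronal covariate it was 1 (1 higher and 0 lower). Leaving out each rat in turn gave 0 to 6388 genes, 0 to 3861 higher and 0 to 2527 lower. Replicate numbers do not pair rats across time (correlations of deviations 0.307, -0.222 and 0.548), so the block is no paired analysis. DESeq2 called 5 genes for the difference between the sides, and edgeR called 0 with and without the block and without each rat.

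Of 121 genes named, 100 kept their sign in every fit run, and of 40 lists the medians of 17 did. The cause was not tested for the others. Many of the genes were named for a small p in these same libraries, which favours a kept sign. Under the neuronal covariate the log2 difference was -0.075 for Pvalb, -3e-04 for Scn9a, -0.40 for Nefh, -0.10 for Calca, -0.054 for Ntrk3, 0.10 for Cd68, 0.17 for Hbb, 0.55 for Pecam1, -0.043 for Tac1, 0.53 for Camp, 0.65 for S100a8, 0.10 for Pcna and 0.29 for Cdk1. Under the macrophage covariate it was -0.041 for Scn9a, -0.47 for Nefh, -0.078 for Calca, -0.050 for Kcna2, -0.13 for Ntrk3, 0.045 for Per2, 0.43 for Cd68, 0.72 for Hbb, 0.43 for Pecam1, -0.062 for Tac1, 0.91 for Camp, 1.00 for S100a8, 0.18 for Cfd, 0.27 for Pcna and 0.80 for Cdk1. Without rat H and with the neuronal covariate it was -0.52 for Pvalb, -0.013 for Scn9a, -0.27 for Nefh, -0.26 for Calca, 0.028 for Gal, -0.061 for Acta1, 0.12 for Cd68, 0.47 for Hbb, 0.73 for Pecam1, -0.24 for Tac1, 0.41 for Camp, 0.32 for S100a8, -0.81 for Actn3, 0.23 for Cfd, 0.12 for Pcna and 0.21 for Cdk1. On log2(TPM + 1) and log2(TPM + 0.1) it was 0.58 and 0.59 for Fabp7, 0.036 and 0.026 for Gal, and 0.49 and 0.52 for Pecam1. With the length trend removed it was 0.36 for Fabp7, 0.054 for Gal and 0.15 for Hspe1. With the block it was 0.0052 for Fabp7 and -0.32 for Acta1, and without rats B and H -0.44 for Acta1, 0.28 for Pecam1 and -0.59 for Actn3. Over each rat left out it ran from -0.39 to 0.11 for Fabp7, from -0.40 to 4.90 for Acta1, from -0.37 to 0.30 for Pecam1 and from -0.16 to 6.20 for Actn3, and the difference in the skeletal muscle level from -0.67 to 1.62.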

Other observations

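Both tested enzymes of histidine breakdown, of 4 in a list added after the values were seen, had positive differences. Beside Hal, given above, Amdhd1, an enzyme further along the same path and chosen after its values were seen, was at 2.04 CPM on average at 6 weeks and 7.29 CPM at 8 weeks (log2 difference 1.83, SE 0.33, edgeR adjusted p 0.0785). Neither gene overlapped between the groups, and DESeq2 called both. The other genes of the list, Ftcd and Uroc1, were too low to test. The operated side had a median of 0.34 for the pair.

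Of 19 RNAs listed for a short or absent poly(A) tail or for nuclear retention, 6 were found and tested, so these values do not describe that class. The histones H2az1 and H1f0 among the 6 are known to have polyadenylated messages. The 6 differences were negative, with a median of -0.95. Rn7sl1, the RNA of the signal recognition particle, had 44.8, 78.5 and 40.4 CPM in rats A, B and E and 23.2, 12.1, 6.00 and 19.6 CPM in rats D, C, G and H (-1.84, SE 0.46, edgeR adjusted p 0.0951). Rpph1, the RNA of ribonuclease P, was at -2.35 (SE 0.70). H1f4, H2az1, H1f2 and H1f0 of the histone genes were at -1.15, -0.74, -0.41 and -0.45. edgeR called none, 3 had an unadjusted p under 0.05, and DESeq2 called 2. On the operated side the median was -0.18.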
